A study of Homo sapiens with 4 samples.

Results

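The NEAT1 and MALAT1 locus on chromosome 11 was examined in lists of H3K4me3 peaks from MDA-MB-231 cells with ARID1A knocked out and from control MDA-MB-231 cells. H3K4me3 is the trimethylated form of lysine 4 of histone H3 and marks active promoters. The members were all peaks of either list that overlapped hg19 positions 65180000 to 65285000, a window of 105 kb that holds the starts of NEAT1 (65190269) and MALAT1 (65265233), both on the plus strand and 74964 bp apart. They were 9 of 23588 knockout peaks and 2 of 36677 control peaks.

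MDA-MB-231 is an established triple-negative breast cancer line, and both groups, ARID1A knockout and control, derive from it. The labels used here give neither a treatment nor a clone, and 3 of the 4 libraries have a cell line label whose last digits differ from that name. ARID1A belongs to the canonical BAF form of the SWI/SNF complexes, which move nucleosomes with energy from ATP, and binds DNA there. Each genotype had 1 H3K4me3 immunoprecipitate (IP), of 13391724 tags in the knockout and 27748061 tags in the control, and 1 input library, labelled IgG. With 1 IP per genotype no difference has a replicate check, no test was made, and every interval is a 95% interval that covers counting error only. The header of the knockout list gives its library another name, K6. The median width was 300 bp in the knockout list and 2968 bp in the control list, and the median number of tags was 419 per knockout peak and 168 per control peak. The lists also differed in the tags they took up. Peaks held 13307723 of the 13391724 knockout IP tags, and 17235561 of the 27748061 control IP tags.

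NEAT1 and MALAT1 are long noncoding RNAs that stay in the nucleus and are highly transcribed in many cell types. NEAT1 RNA is the scaffold of paraspeckles, nuclear bodies that hold RNA-binding proteins, and its gene gives a short and a long isoform from the same promoter. MALAT1 RNA collects at nuclear speckles, bodies rich in splicing factors. H3K4me3 typically covers the nucleosomes on both sides of the start of such genes and leaves the start itself, which is poor in nucleosomes, with less signal. In the order of genes in RefSeq (GRCh38.p14), FRMD8 precedes NEAT1, the microRNA gene MIR612 lies within NEAT1, the RNA genes and pseudogene FAUP4, ENEMAL and LINC02736 stand between NEAT1 and MALAT1, and the antisense RNA TALAM1 and the small RNA MASCRNA overlap MALAT1. No peak was assigned to these neighbours, because the peaks are in hg19.

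The MALAT1 promoter is shown because the knockout list had peaks on both sides of the MALAT1 start and the control list used here had none there. RefSeq gives 2 MALAT1 starts, 1307 bp apart, and the sequences below run from 250 bases before to 50 bases after each, on the plus strand of GRCh38.p14, at chr11:65497488-65497787 and chr11:65498795-65499094. These positions are in another build than the peaks and cannot be set beside them, and which start corresponds to the hg19 start above was not settled. Capitals mark matches, on either strand, to GGGCGG (the GC box bound by SP1 family proteins, CCGCCC on the other strand) and TATAAA (the TATA box).
MALAT1 promoter 1: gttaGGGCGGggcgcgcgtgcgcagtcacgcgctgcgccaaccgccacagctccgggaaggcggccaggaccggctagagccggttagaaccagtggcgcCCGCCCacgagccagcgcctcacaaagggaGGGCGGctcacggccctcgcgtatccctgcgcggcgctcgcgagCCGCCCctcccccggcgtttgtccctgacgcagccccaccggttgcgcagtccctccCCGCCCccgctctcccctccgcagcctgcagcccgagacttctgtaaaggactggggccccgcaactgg
MALAT1 promoter 2: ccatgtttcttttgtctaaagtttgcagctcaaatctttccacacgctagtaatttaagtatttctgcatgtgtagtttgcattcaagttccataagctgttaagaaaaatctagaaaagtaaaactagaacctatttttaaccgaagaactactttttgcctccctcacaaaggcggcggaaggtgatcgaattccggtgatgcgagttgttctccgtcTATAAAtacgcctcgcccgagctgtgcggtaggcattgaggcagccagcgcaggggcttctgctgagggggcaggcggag

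The upstream MALAT1 promoter was the CpG-rich one. It had a GC content of 73.7% and 37 CpG dinucleotides in 300 bases, and 12.3% of the 35116 RefSeq promoters of this length had as high a GC content. The downstream promoter had a GC content of 46.0% and 14 CpG dinucleotides, against medians of 58.7% and 14 over all promoters. GGGCGG was found 5 times in the upstream promoter, 2 times on the plus strand and 3 times on the minus strand, and not in the downstream one. At least 1 match was present in 45.0% of all promoters. TATAAA was found once, in the downstream promoter, with its first base 30 bases before the start. It was present in 11.5% of all promoters. CCAAT and TGANTCA (the site of AP-1 factors), searched on both strands, had no match in either MALAT1 promoter and were present in 34.6% and 7.71% of all promoters. No match overlapped another.

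The 2 genes showed different patterns in the lists. At NEAT1 the knockout list had 2 narrow peaks inside a control domain of 36476 bp, and near MALAT1 it had 4 peaks where the control list used here had none. Neither a knockout peak in a wide control domain nor one without a control peak was rare. Of the control domains of 10 kb or more, 84.4% met a knockout peak, with a median of 2 knockout peaks per domain. Of the 23588 knockout peaks, 9357 met no control peak. Rows may have been left out of the copy of that list used here, so a peak missing from it is not shown to be missing from the authors' list. The 9 knockout peaks covered 5480 bp of the window (5.22%) and held 3817 tags (exact Poisson interval 3697 to 3940). The 2 control peaks covered 44745 bp (42.6%) and held 8962 tags (8777 to 9150). Of the knockout tags in peaks, 78.0% lay in the stretch without a control peak that holds the MALAT1 start, whereas both control peaks lay in the NEAT1 part of the window.

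**Figure D1:**
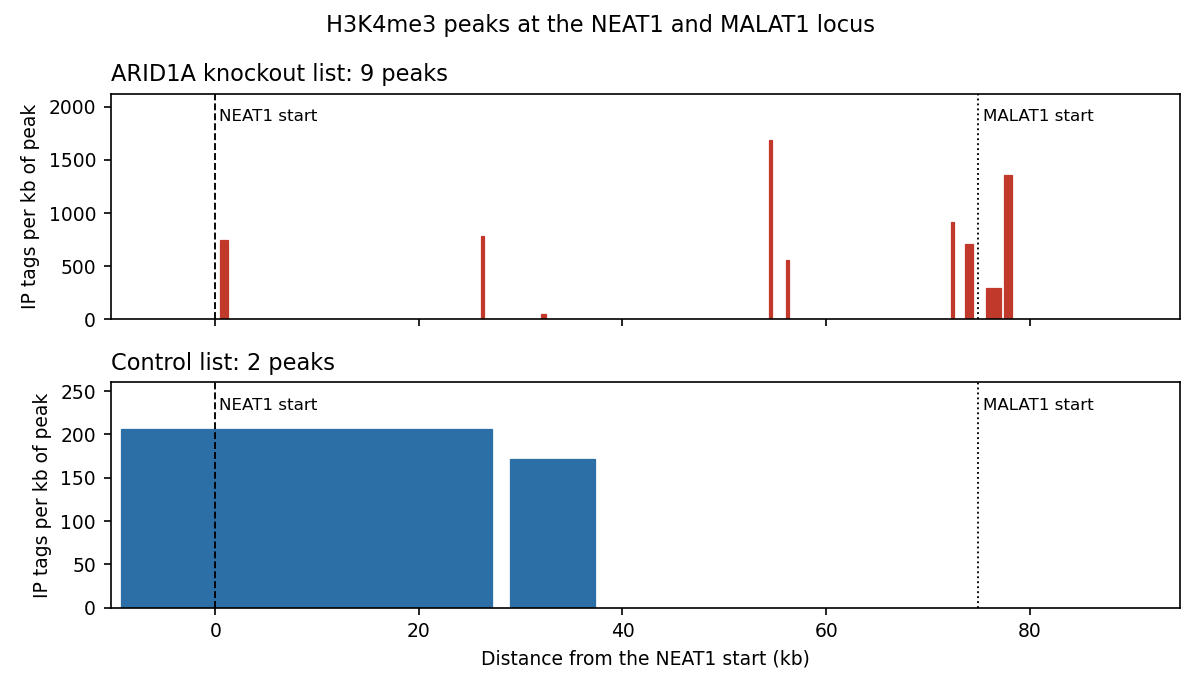
H3K4me3 peaks of the locus by distance from the NEAT1 start (kb), ARID1A knockout above and control below, with bar width showing peak width and bar height the IP tags per kb of peak, on a separate scale in each panel. The 9 knockout peaks are narrow, 4 of them stand around the MALAT1 start, and the 2 control peaks end well before it.

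At NEAT1 the knockout peak nearest to the gene start ran from 65190739 to 65191513, a width of 775 bp, and held 581 tags (535 to 630). It began 470 bp after the NEAT1 start, so the start itself was outside any knockout peak, while it lay inside a wide control domain. Its summit was 986 bp after the start and 492 bp beyond the summit of that domain, near the median distance of 567.5 bp over the 14222 knockout peaks that met exactly 1 control peak. By width it was among the 9.27% widest knockout peaks, and 36.3% of knockout peaks had as many tags or more. The other knockout peak in the domain, from 65216386 to 65216685, was 300 bp wide with 234 tags (205 to 266). Its summit was 26266 bp after the NEAT1 start and its right end 772 bp short of the domain's end. Between these peaks the knockout list had a gap of 24872 bp, all of it inside the control domain.

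The control domain at NEAT1 was among the widest and most tag-rich of its list. It ran from 65180982 to 65217457, from 9287 bp before the NEAT1 start to 27188 bp after it, and held 7538 tags (7369 to 7710). It ranked 8th by width and 7th by tags among the 36677 control peaks. Its summit, the position of the highest pileup, was at 65190763, which is 494 bp after the NEAT1 start and in the left part of the domain, 9782 bp from its left end and 26694 bp from its right end.

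Relative to its control tags, the NEAT1 domain held fewer knockout tags than most wide control domains. The knockout peaks in it had 815 tags (760 to 873), which is 10.8% of its control tags. Over the 79 control domains of 20 kb or more, the median was 43.8% (quartiles 28.4 and 71.0%), and 6 of the 79 were below the NEAT1 domain. Over the 1079 domains of 10 kb or more the median was 41.0%, and 254 were below it. In absolute numbers it was nearer the middle of the domains of 10 kb or more, whose medians were 1006 knockout tags and 2 knockout peaks. Over the domains of 20 kb or more the median was 2161 knockout tags (quartiles 1197 and 3516), and 12 of the 79 were below the NEAT1 domain. The NEAT1 domain held 2 knockout peaks, against a median of 3 (quartiles 2 and 5) in the domains of 20 kb or more, and knockout peaks covered 2.95% of its length, against a median of 7.24% in those domains and 6.40% in the domains of 10 kb or more. Its control tag density was not low, at 207 tags per kb against a median of 192.

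The log2 ratio of tags in the 2 knockout peaks to tags in the control domain, with a pseudocount of 1 and centred on the median of the 7552 peaks that matched 1 to 1 between the lists, was -2.75 (counting interval -2.86 to -2.65). Of the 7552 matched pairs, 657 (8.70%) were lower. The ratio sets a sum over 1075 bp of knockout peaks beside a sum over 36476 bp, called separately. It leaves out any knockout tags in the rest of the domain, so it describes the lists and not the level of the mark. Over the whole list, few knockout tags lay outside peaks, as 13307723 of 13391724 were in peaks, against 17235561 of 27748061 in the control. Per kb, these knockout peaks averaged 758 tags, against 207 tags for the control domain. Per kb of covered length, with the matched peaks treated in the same way, the centred ratio was -1.19.

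The next knockout peak, from 65222287 to 65222772, was 486 bp wide with 26 tags (17 to 38). This was the weakest of the 9 knockout peaks, and 95.8% of knockout peaks had as many tags or more. It lay in the second control domain, which followed 1808 bp after the NEAT1 domain and ran from 65219266 to 65227534, with a width of 8269 bp and 1424 tags (1351 to 1500). That domain was among the 10% of control peaks with the most tags and the 10% that were widest, with 8.17% and 5.80% of the list at or above it. The knockout summit was 47 bp from the control summit, which lay 32213 bp after the NEAT1 start. Among knockout peaks that met exactly 1 control peak, 7.66% had a summit within 50 bp. The centred log2 ratio of the tags in this pair was -5.27 (-5.94 to -4.76), and 64 of the 7552 matched pairs were lower. It compares 486 bp with 8269 bp and leaves out knockout tags outside the peak, and per kb of covered length it was -4.70. The peak caller's false discovery rate for this knockout peak was 2.22%, the highest of the 9, and under a limit of 1% the second domain had no knockout peak.

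Of the 9 knockout peaks, 3 met a control peak (33.3%, exact Clopper-Pearson interval 7.49 to 70.1%), against 60.3% of all knockout peaks and 62.6% of those on chromosome 11. Both backgrounds lie inside that interval. In the other direction both control peaks of the window met a knockout peak (2 of 2, 15.8 to 100%). The background was 28.4% over all control peaks, 84.2% over the 10% with the most tags, 76.9% over the 10% that were widest and 84.4% over the domains of 10 kb or more, so this count is not unusual for domains of this strength. Knockout peaks covered 3.49% of the length of the 2 control domains, against 4.94% over all control peaks and 7.27% over those of 10 kb or more.

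The other 6 knockout peaks, with 2976 tags (2870 to 3085), lay where the control list used here had no peak, between the end of the second domain and 65287302. The MALAT1 start lies in this gap of 59768 bp, and the nearest control summit was 27556 bp away from it. The gap holds for the copy of the control list used here, and whether a control row at MALAT1 was left out of it could not be told. Tags outside peaks are not in the lists, so the level of the mark at MALAT1 in control cells was not analysed here, and no ratio is given.

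Of these 6 knockout peaks, 4 stood around the MALAT1 start within a span of 5978 bp. They covered 3319 bp and held 2302 tags (2209 to 2398), or 60.3% of the knockout tags of the window. Going along the plus strand, the first ran from 65262517 to 65262821, with a width of 305 bp, 279 tags (247 to 314) and a summit 2565 bp before the start. The second ran from 65263923 to 65264702, with a width of 780 bp, 551 tags (506 to 599) and a summit 761 bp before the start.

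Past the start, the third ran from 65265957 to 65267433 and was the widest knockout peak of the locus at 1477 bp, with 441 tags (401 to 484) and a summit 1352 bp after the start. Only 0.822% of knockout peaks were as wide or wider. Its tags were spread thinly, at 299 per kb against a list median of 1094. The last, from 65267738 to 65268494, was 757 bp wide and had the most tags of the locus, 1031 (969 to 1096), with a summit 2961 bp after the start. The 2 peaks before the start held 830 tags together and the 2 after it 1472, of which 1031 were in the last peak alone. Without that peak, whose fold enrichment was low for its tags as described below, the after side held 441 tags. A stretch of 1254 bp between the second and the third peak had no knockout peak, and it holds the MALAT1 start, 531 bp after the end of the second and 724 bp before the beginning of the third. Neither of the 2 hg19 gene starts used here was therefore inside a knockout peak. The 2 RefSeq MALAT1 starts are 1307 bp apart in GRCh38.p14, more than the length of this stretch. The other MALAT1 start was not placed against the peaks. The third and the last were only 304 bp apart, and 9.24% of gaps between adjacent knockout peaks were under 1 kb.

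**Figure D2:**
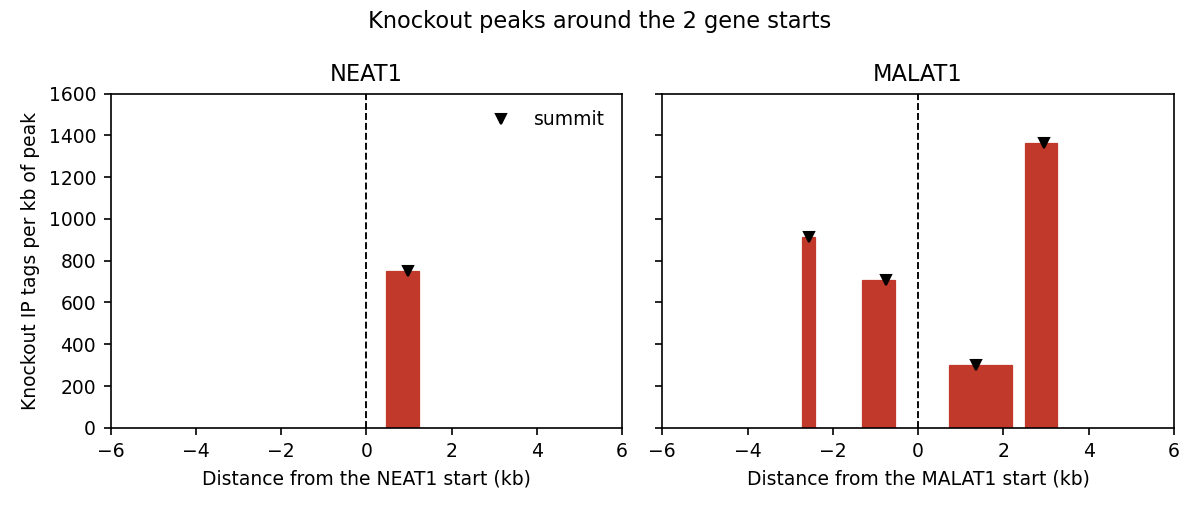
Knockout peaks within 6 kb of the NEAT1 start (left) and the MALAT1 start (right), with bar width showing peak width, bar height the IP tags per kb of peak and triangles the summits. NEAT1 has 1 peak, after its start, and MALAT1 has 2 before and 2 after its start, with the hg19 MALAT1 start used here between peaks.

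The remaining 2 knockout peaks of the gap lay between the genes, about midway from the second control domain to MALAT1. The first of them, from 65244669 to 65244968, was 300 bp wide with 506 tags (463 to 552) and had the highest tag density of the 9, at 1687 tags per kb. The other, from 65246299 to 65246598, was 300 bp wide as well, with 168 tags (144 to 195), 1330 bp further on. Their summits were 20415 and 18785 bp before the MALAT1 start. Each was at least 17134 bp from any control peak.

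As a group, the 6 knockout peaks without a control peak were somewhat wider and richer in tags than others of that kind. Their median was 473.5 tags and 531 bp, against 336 tags and 300 bp over all 9357 knockout peaks without a control peak. Their distance to the nearest control peak ran from 17134 to 24481 bp, near the median of 18326 bp over the 9357. All 6 were more than 10 kb away, as were 24.8% of all knockout peaks and 62.5% of those without a control peak.

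The number of knockout peaks in this one gap of the control list used here was high for its length. The comparison was chosen after the values were seen and is a description, and it holds only if no control row is missing at MALAT1. Of the 36653 gaps between adjacent control peaks, 19.0% held at least 1 knockout peak that met no control peak, and 44 held 6 or more. Among the 26377 gaps that were no longer than this one, the gap with MALAT1 was the only one with 6 or more. By knockout tags, 2 of those 26377 gaps, this one included, had 2976 or more. The gap itself was not rare in length, as 28.0% of gaps were as long or longer.

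**Figure D3:**
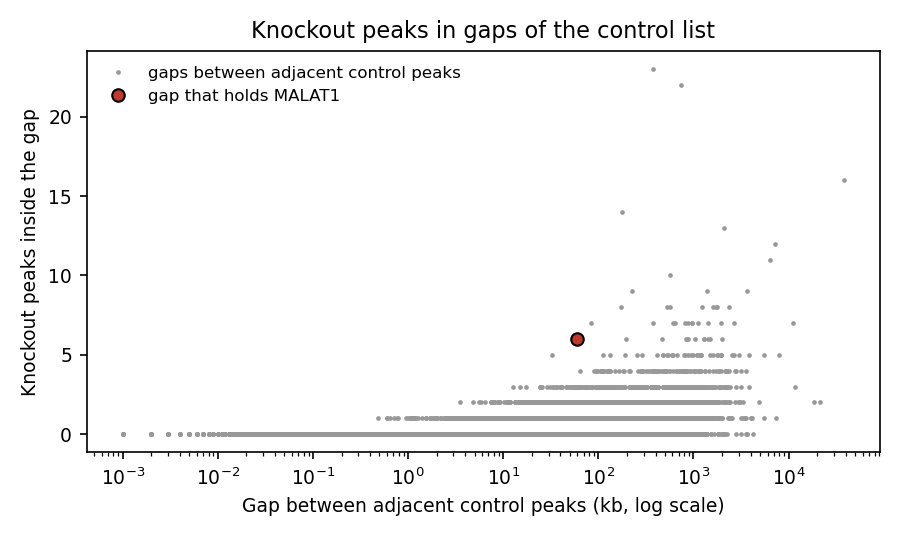
Knockout peaks that met no control peak, counted in each of the 36653 gaps between adjacent control peaks, against gap length in kb on a log scale. The gap that holds MALAT1 (red, 59768 bp and 6 knockout peaks) stands above every gap of its length or shorter, and gaps with more knockout peaks are longer.

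Among themselves the 9 knockout peaks ranged from 300 to 1477 bp in width (median 486 bp) and from 26 to 1031 tags (median 441). Exactly 300 bp, the fragment length the peak caller used, was found for 3 of 9, against 55.0% of the list. A width of at least 700 bp was found for 4 of 9, against 11.7% of the list. Those 4 were the peak after the NEAT1 start and 3 of the 4 around the MALAT1 start. The limit of 700 bp was not among the planned measures and lies a little below the narrowest of these 4, at 757 bp. The share is therefore a description only. The tag counts were unremarkable, with 5 of 9 above the list median of 419, and the tag density was above the list median for 2 of 9. The caller's score was at its ceiling of 3100 or above for 8 of 9 knockout peaks and both control peaks, against 80.5% of the knockout list and 19.4% of the control list.

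**Figure D4:**
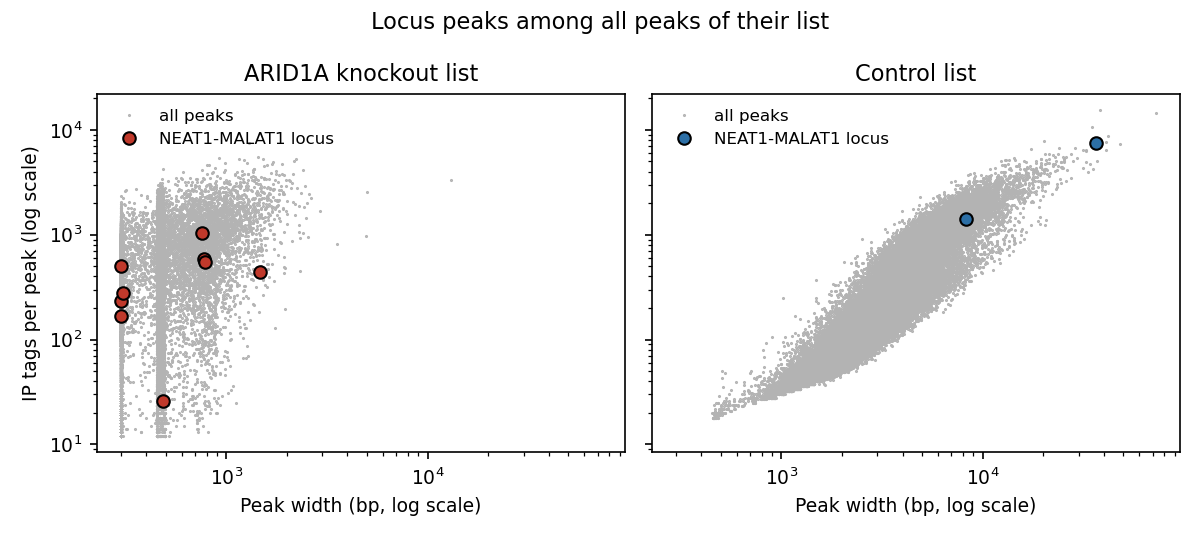
Width (bp) and IP tags of all peaks (grey) and of the peaks of the locus (coloured), ARID1A knockout left and control right, on log axes. The NEAT1 domain lies at the upper right end of the control list, and among the 9 knockout peaks the one of 1477 bp is among the widest of its list and the one of 26 tags is near its lower edge.

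The authors' fold enrichment, the ratio of the IP to a local background derived from the input of the same genotype, was low at this locus for the tags the peaks held. Among knockout peaks within 10% of its tag count, each of the 9 had a fold below the median. The peak after the NEAT1 start had a fold of 123, against a median of 304 over 2046 such peaks, of which 41 were lower. The last of the MALAT1 peaks, the one with 1031 tags, had a fold of 38.9, against a median of 492 over 1379 such peaks, of which 2 were lower. For the other 7 knockout peaks between 2.04 and 27.9% of peaks with like tags had a lower fold. The second control domain had a fold of 78.3, against a median of 122 over 1453 control peaks with like tags, of which 12.5% were lower. Only 3 control peaks had tags like those of the NEAT1 domain, all with a higher fold than its 86.7. Peaks were matched on tags and not on width, and 6 of the 9 knockout peaks were wider than the list median of 300 bp. The part that width has in these folds was not tested. Folds are on a scale of their own in each list and were not set against each other between genotypes. The part that the input background has in the missing control peak at MALAT1 was not tested.

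Over the whole window, the centred log2 ratio of tags in knockout peaks to tags in control peaks was -0.78 and, when tags were divided by the library totals without centring, -0.18. The sums cover 5480 bp of knockout peaks, at a mean of 697 tags per kb, and 44745 bp of control peaks, at a mean of 200.3 tags per kb. Tags outside peaks are missing from both, and 2976 of the 3817 knockout tags come from the stretch with no control peak in the list used here, so the ratio is no measure of the mark over the locus.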

How the data were processed

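H3K4me3 chromatin immunoprecipitation sequencing was done on 4 libraries, and the 2 deposited peak lists were matched to the IP libraries by title. Chromatin was digested with micrococcal nuclease, per the labels' protocols. Bowtie2 2.2.4, MACS 1.4.3 and the build hg19 stand in the submitters' processing notes. Per the file headers, each IP was called against its own genotype's input with a p cutoff of 0.0001 and a fragment length of 300 bp, and the larger library was scaled to the smaller. Each list comes from 1 IP. The input libraries held 17890122 tags in the knockout and 14878873 in the control.

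The deposited tag counts are whole numbers, not normalized. The deposited score is -10 times log10 of the p that MACS gave, identified by its place in the table and its minimum of 40, because its column name was lost. The deposited fold is the ratio of the IP to the local background. False discovery rates were deposited in percent.

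The work was done in Python 3.11.15 (scipy 1.17.1, pandas 2.3.3, numpy 2.4.6; figures with matplotlib 3.10.9). Peaks met when they shared at least 1 bp. Summit positions count the deposited offset from 1 at the peak start. Intervals are exact Poisson for tags, and Clopper-Pearson for shares and, of the knockout tags given both counts, for ratios. The ratio step was tested on simulated counts, and the overlap step against a direct count on part of the real lists. The locus, its window and the measures were chosen with earlier results of these data known. Every peak of the window is named, with the nearest peak outside each edge. RefSeq promoters matched by symbol for 1 of the 2 genes, MALAT1. No source used here speaks of molecular identifiers, and PCR copies of a fragment may each be counted as a tag. As alternatives, the thresholds, list lengths, overlap rules, merging, window and scaling were varied.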

Additional observations from a re-analysis of the deposited data

How the results depend on the processing

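No paired analysis was possible because each genotype has 1 IP library. Of 93 alternative values, 77 stayed within 1.5 times the reported count or length, or within the counting interval of the share or ratio, and 16 did not. The gap alternatives were added after seeing the data, and the gap with MALAT1 stayed the only one of its length or shorter with as many knockout peaks under all 5 of them. It held 4 when knockout peaks of 300 bp were left out, and 6 under the p, FDR and fold limits, which all 6 passed. Merging of peaks within 1 kb was not tried for the gaps. With the window widened by 50 kb on each side it held 16 knockout and 8 control peaks, 7618 knockout and 19864 control tags and 95115 bp of control peaks, by construction. With an overlap of 50% of the peak, 0% of the control peaks met a knockout peak. The log2 ratio in the NEAT1 domain, -2.75 as reported, was -2.16 with library totals, -3.21 with raw tags and -1.19 per kb. In the second domain, -5.27 as reported, it was -4.67 with library totals and -4.70 per kb. Over the window, -0.78 as reported, it was -0.18 with library totals, -1.23 raw, -1.27 per kb and -0.88 when centred on summed tags. The values with library totals and with raw tags were not centred on the matched peaks. All ratios kept their sign. The centre of the NEAT1 domain was 8951 bp after the NEAT1 start, where its summit was 494 bp after it. Under an FDR of 1% or less, or a fold of 10 or more, 8 knockout peaks were left and 50.0% of the control peaks met one. The peak with 26 tags had the fewest tags of the knockout peaks in the window, and library depth was not varied.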

Other observations

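On both sides of the window the lists again shared positions. Before it, the nearest knockout peak ran from 65154198 to 65154497 with 221 tags (exact Poisson interval 193 to 252) and lay inside the nearest control domain, from 65145220 to 65159361, which spanned 14142 bp with 2297 tags (2204 to 2393). After it, the nearest knockout peak ran from 65292818 to 65293291 with 128 tags (107 to 152) and lay inside the nearest control domain, from 65287303 to 65298039, which spanned 10737 bp with 1283 tags (1214 to 1355). That domain ended the gap in the control list, 2303 bp past the edge of the window. In the lists used here, the stretch around MALAT1 with knockout peaks only was thus bounded on both sides by control domains that each met a knockout peak. On the left this was the second control domain, whose only knockout peak had 26 tags and was lost under a false discovery rate limit of 1%. Meeting a knockout peak was the usual case for wide domains, with 84.4% of all control domains of 10 kb or more.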
